A study of Homo sapiens with 6 samples.

Results

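TRAIL receptor and survival gene transcripts were examined in CFPAC-1, an established human cell line derived from ductal adenocarcinoma of the pancreas. The set held 9 genes, taken by their symbols from a deposited table of 59962 genes: the ligand gene TNFSF10, the receptor genes TNFRSF10A, TNFRSF10B, TNFRSF10C and TNFRSF10D, and the intracellular regulators MCL1, BCL2L1, BCL2L11 and CFLAR. RNA-seq libraries came from 3 groups of 2: cells with the guide RNA sgRNA1 against SULF2, cells with the guide RNA sgRNA3 against SULF2, and control cells with a guide against the bacterial gene LACZ, which CFPAC-1 cells do not carry. SULF2 encodes an extracellular sulfatase that trims heparan sulfate, and the study asked what its knockdown does to transcript levels. The design text speaks of knockdown. How the guides act on the gene, whether each line is a clone, and whether the paired libraries are separate cultures is not stated in the labels. The p-values therefore measure only the spread between libraries, which may be technical.

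TRAIL is a death ligand of the tumour necrosis factor family. It binds receptors that carry a cytoplasmic death domain (TRAIL-R1 from TNFRSF10A and TRAIL-R2, also called DR5, from TNFRSF10B), which recruit FADD and caspase-8, while decoy receptors (TRAIL-R3 from TNFRSF10C, held by a lipid anchor, and TRAIL-R4 from TNFRSF10D, with a shortened death domain) bind the ligand without passing on the death signal. c-FLIP, from CFLAR, blocks caspase-8 at the receptor, and in many epithelial tumour cells the signal also has to pass the mitochondria, where MCL-1 and BCL-XL (from BCL2L1) hold back BAX and BAK and BIM (from BCL2L11) counters them.

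The targeted gene was checked first. SULF2 had 8.98 and 12.81 TPM in sgRNA1 libraries and 10.07 and 9.24 TPM in sgRNA3 libraries, against 25.69 and 22.52 TPM in LACZ libraries. TPM is a length-corrected transcript level that sums to the same total in every library. On the scale log2(TPM + 1) SULF2 fell by 1.09 with sgRNA1 (SE 0.18, limma adjusted p = 0.0338). It fell by 1.23 with sgRNA3 (SE 0.18, limma adjusted p = 0.0215). The sgRNA1 call was lost without sgRNA1 library 1 or any one of the sgRNA3 and LACZ libraries (limma adjusted p 0.0695 to 0.159), and the sgRNA3 call without any one of the sgRNA3 and LACZ libraries (0.0853 to 0.106). Of 9 ductal epithelium markers, 8 reached 1 TPM in every library, CFTR being the exception at under 1 TPM. Their summed level was 8208 and 8026 TPM with sgRNA1, 8684 and 8638 TPM with sgRNA3, and 9234 and 9061 TPM with LACZ, with KRT18, KRT19 and SOX9 called lower with both guides and CDH1 with sgRNA1. Leukocyte markers PTPRC and CD3E, fibroblast markers DCN and PDGFRB and endothelial markers CDH5 and VWF stayed under 1 TPM. Acinar CPA1 and CEL did too, and islet INS and GCG were listed at 0. Other markers were detected: endothelial PECAM1 at 3.51 to 4.38 TPM, and leukocyte CD14 at 2.26 to 8.94 TPM and LYZ at 4.35 to 6.42 TPM. Acinar PRSS1 averaged 1.19 TPM with sgRNA1, 0.91 TPM with sgRNA3 and 0.8 TPM with LACZ. PECAM1, CD14, LYZ and PRSS1 were not called with either guide. Summed leukocyte markers, mainly CD68, were 107 and 102 TPM with sgRNA1, 112 and 114 TPM with sgRNA3, and 96.3 and 102 TPM with LACZ. Summed fibroblast markers, nearly all COL1A1, were 58.4 and 57.5 TPM with sgRNA1, 39.9 and 35.7 TPM with sgRNA3, and 76.2 and 76.0 TPM with LACZ. COL1A1 was called lower with both guides (limma adjusted p = 0.0403 with sgRNA1 and 0.00361 with sgRNA3) and CD68 higher with sgRNA3 (limma adjusted p = 0.0416). Under scaling by median ratios KRT19 lost both calls, KRT18 its sgRNA3 call and COL1A1 its sgRNA1 call. The sgRNA1 calls of CDH1 and COL1A1 were lost without any one of the 6 libraries. SOX9 lost each call without any one library of the groups compared, as did CD68 with sgRNA3. KRT18 with sgRNA1 was lost only without an intensity trend, and COL1A1 with sgRNA3 under no alternative. The part of these markers in the results below was not tested. Between 15563 and 15923 genes per library reached 1 TPM, mitochondrial genes took 10.3% to 11.2% of the TPM, and sequencing depth is unknown because TPM does not keep it. In bulk libraries fewer cells of a type and less RNA per cell cannot be told apart.

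All 9 genes passed the filter of at least 1 TPM in at least 2 libraries, TNFRSF10C with 4 of its 6 libraries at that level, and were tested in one limma fit with 16610 genes. A gene is called where its two-sided limma p, adjusted by Benjamini-Hochberg over those genes, is under 0.05. With sgRNA1, 5 of the 9 were called, 1 higher and 4 lower, where 6.0% of all genes tested were called (1.69% higher, 4.31% lower). With sgRNA3, 3 of the 9 were called, 1 higher and 2 lower, where 9.08% of all genes were called (3.84% higher, 5.25% lower). The decoy gene TNFRSF10D rose and MCL1 and BCL2L1 fell with both guides, 3 of 9 against a background of 4.05% called with both guides in the same direction (1.15% higher, 2.90% lower). Over all genes the called ones were 281 higher and 716 lower for sgRNA1, which scaling by median ratios made 606 and 576. For sgRNA3 they were 637 and 872, which that scaling made 1042 and 788. The 2 comparisons share the LACZ libraries. The 9 genes were chosen with earlier results of these data known, so their shares are not independent results. Median changes on the log2 scale were -0.26 for the 9 genes and -0.07 for all genes with sgRNA1, and -0.09 and -0.05 with sgRNA3.

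**Figure D1:**
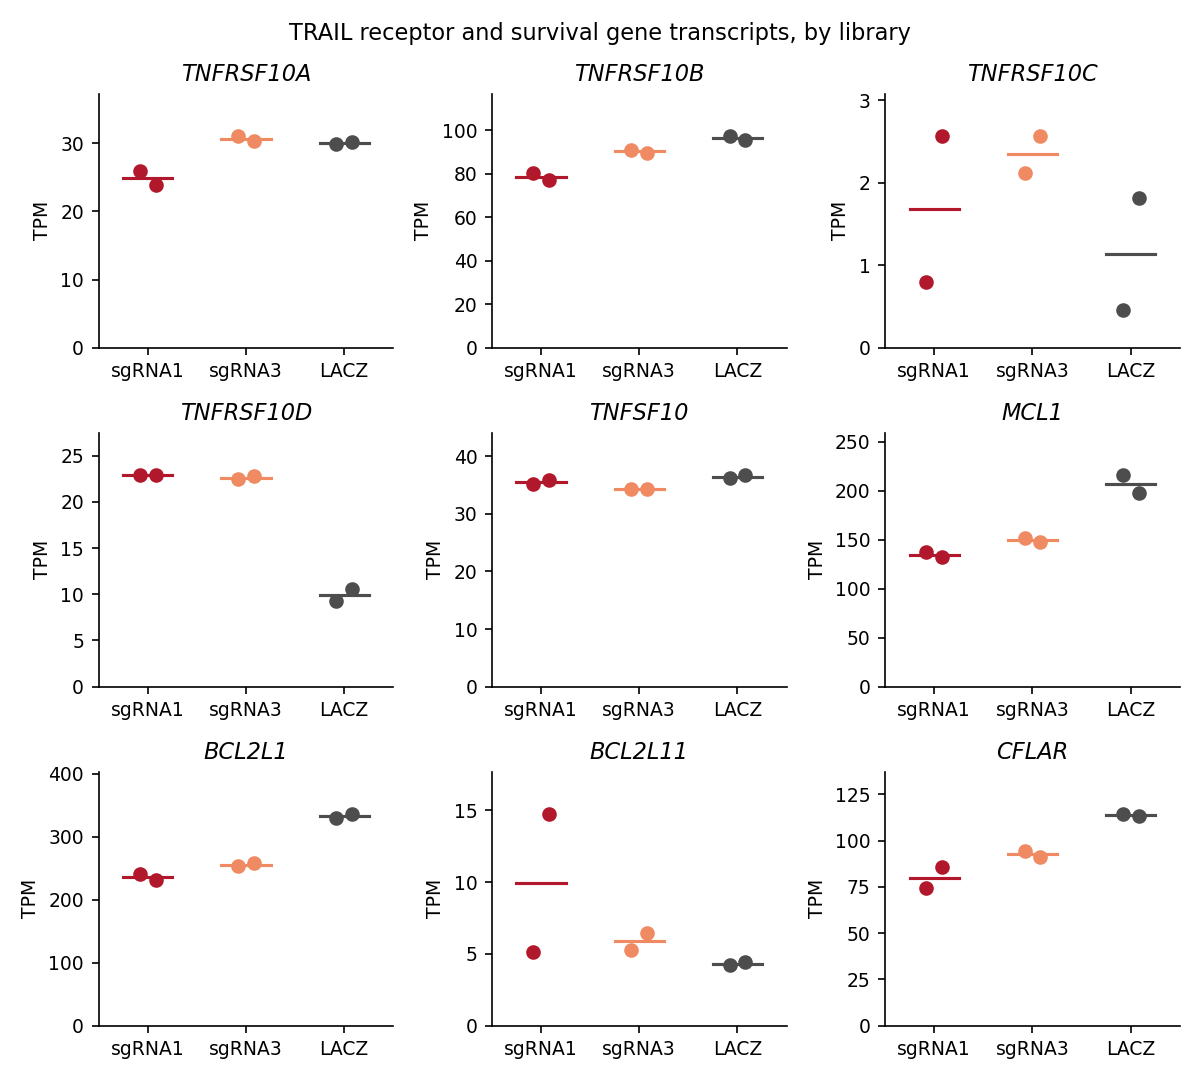
TPM (vertical axis, each panel from 0) of the 9 genes in sgRNA1, sgRNA3 and LACZ libraries; points are the 2 libraries of a group and bars their mean. TNFRSF10D sits near 22 to 23 TPM in all 4 SULF2-guide libraries against 9.24 and 10.56 TPM in LACZ, while MCL1 and BCL2L1 lie below LACZ in all 4.

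**Figure D2:**
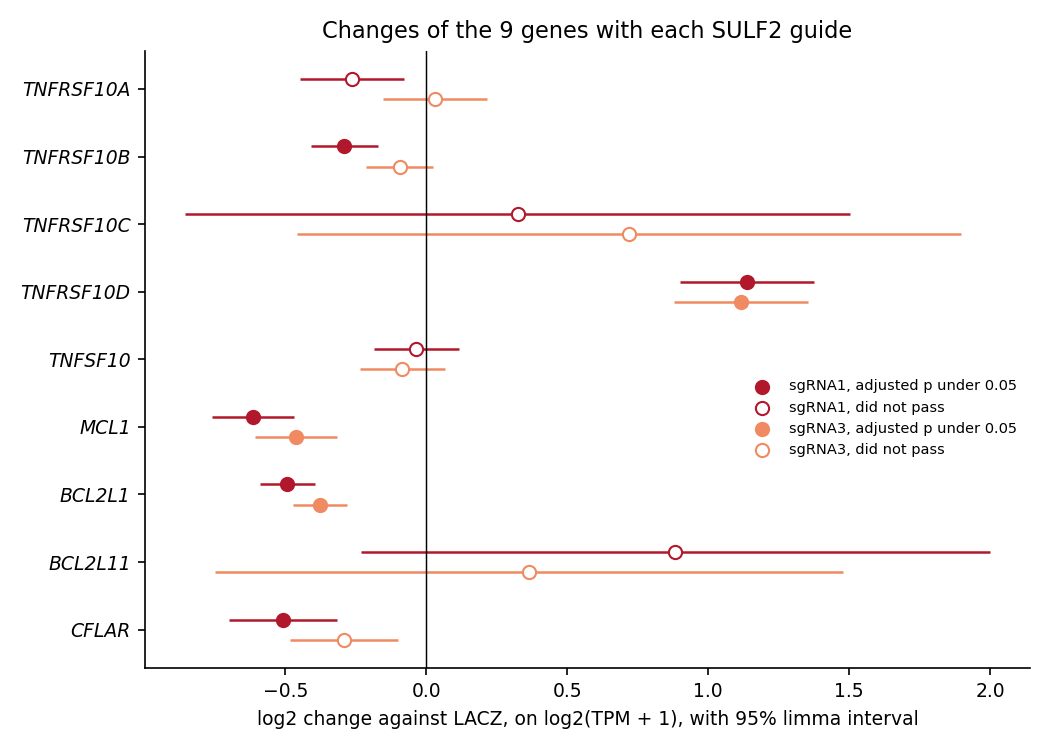
Change of each gene against LACZ (horizontal axis, log2 on the log2(TPM + 1) scale), with 95% limma intervals; filled points passed the adjusted p threshold. TNFRSF10D, at 1.14 and 1.12, stands to the right of 0 with both guides and MCL1 and BCL2L1 to the left, and the intervals of TNFRSF10C and BCL2L11 are wide.

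Promoter windows were available from RefSeq (GRCh38.p14) for 4 of the 9 genes. The most upstream of the RefSeq windows is shown for each, because 2 of the genes, BCL2L1 and CFLAR, fell together with sgRNA1. Each runs 5′ to 3′ on the gene's strand over the 250 bases before the start, with motif matches in capitals. BCL2L1 lies at chr20:31723964-31724213 (minus strand), CFLAR at chr2:201118466-201118715 (plus), BCL2L11 at chr2:111120664-111120913 (plus) and TNFSF10 at chr3:172523431-172523680 (minus).
BCL2L1: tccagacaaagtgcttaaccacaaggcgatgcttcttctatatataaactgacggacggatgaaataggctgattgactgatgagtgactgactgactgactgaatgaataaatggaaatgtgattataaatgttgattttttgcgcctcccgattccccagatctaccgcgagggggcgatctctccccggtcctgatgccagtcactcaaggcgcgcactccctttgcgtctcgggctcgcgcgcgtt
CFLAR: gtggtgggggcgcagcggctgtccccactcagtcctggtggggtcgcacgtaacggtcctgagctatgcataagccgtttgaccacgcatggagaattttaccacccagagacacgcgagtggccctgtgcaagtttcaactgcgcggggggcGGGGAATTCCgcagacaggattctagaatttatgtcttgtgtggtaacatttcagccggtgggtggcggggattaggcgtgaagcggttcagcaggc
BCL2L11: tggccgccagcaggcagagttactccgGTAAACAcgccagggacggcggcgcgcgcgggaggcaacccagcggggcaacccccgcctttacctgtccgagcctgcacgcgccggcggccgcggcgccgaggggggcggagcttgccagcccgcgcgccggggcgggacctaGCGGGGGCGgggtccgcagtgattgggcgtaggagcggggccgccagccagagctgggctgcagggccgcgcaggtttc
TNFSF10: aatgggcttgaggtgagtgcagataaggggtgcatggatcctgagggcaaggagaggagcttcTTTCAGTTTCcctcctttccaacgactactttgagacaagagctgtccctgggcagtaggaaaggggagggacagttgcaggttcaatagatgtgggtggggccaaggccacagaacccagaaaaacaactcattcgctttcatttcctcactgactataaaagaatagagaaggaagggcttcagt
Both strands were searched for 10 motifs over the same length in 35116 promoters. The TNFSF10 window held 1 match to the interferon-stimulated element, which 3.02% of promoters hold. BCL2L11 held 1 FOXO match, GTAAACA (2.98% of promoters), and 1 EGR1 match, GCGNGGGCG (8.42%). The EGR1 match overlaps 1 of 3 SP1 matches, GGGCGG (42.6%), which are left in lower case. This CFLAR window held 1 NF-kB match (9.96%), which overlaps an SP1 match. Another CFLAR window, at a later start and not printed, held 1 AP-1 match, and a further window held 2 SP1 matches. In this BCL2L1 window no letters matched AP-1 (TGANTCA, 6.57% of promoters), the cAMP response element (TGACGTCA, 1.65%), the C/EBP-ATF4 composite (TGATGNAAT, 0.888%), the E-box of MYC (CACGTG, 6.35%) or the other motifs. A match describes letters and not binding.

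The ligand gene, TNFSF10 (ENSG00000121858, chromosome 3), did not pass with either guide. It had 35.20 and 35.94 TPM in sgRNA1 libraries and 34.25 and 34.39 TPM in sgRNA3 libraries, against 36.17 and 36.76 TPM in LACZ libraries. All 4 SULF2-guide libraries lay below both LACZ libraries, and 8 of the 9 genes with sgRNA1 and 9 of 9 with sgRNA3 had libraries that did not overlap with LACZ, beside 55.0% (sgRNA1) and 59.1% (sgRNA3) of all genes tested. The log2 change was -0.03 with sgRNA1 (95% interval -0.18 to 0.11, limma adjusted p = 0.768) and -0.09 with sgRNA3 (-0.23 to 0.06, limma adjusted p = 0.412). The sgRNA1 value took the other sign under scaling by median ratios (0.05) and quantile normalization (0.04).

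The 4 receptor genes form a cluster on chromosome 8, from 23020133 to 23225126 in GRCh38 (GENCODE 29), in the order TNFRSF10B, TNFRSF10C, TNFRSF10D and TNFRSF10A. TNFRSF10B and TNFRSF10A overlap genes on the opposite strand (RHOBTB2 for TNFRSF10B, TNFRSF10A-AS1 for TNFRSF10A) and TNFRSF10C overlaps AC107959.5 on its own strand, while TNFRSF10D overlaps no annotated gene. Neither strandedness nor how the counting split reads among these related genes is stated in the labels, so values of overlapping or related copies are uncertain to that degree.

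Of the receptors with a death domain, TNFRSF10B fell with sgRNA1 and TNFRSF10A did not pass with either guide. TNFRSF10B (ENSG00000120889), the most abundant receptor transcript, had 80.12 and 77.14 TPM with sgRNA1 and 90.75 and 89.73 TPM with sgRNA3, against 97.41 and 95.41 TPM with LACZ. It fell to 81.6% of LACZ with sgRNA1 (log2 change -0.29, SE 0.05; limma adjusted p = 0.0328), and was at 93.6% with sgRNA3 (log2 change -0.09, limma adjusted p = 0.266). The sgRNA1 call was lost without any one of the 6 libraries (limma adjusted p 0.0796 to 0.157), and under scaling by median ratios, no intensity trend, a replicate block or only the groups compared (0.0512 to 0.108). TNFRSF10A (ENSG00000104689) had 25.90 and 23.87 TPM with sgRNA1 and 31.08 and 30.30 TPM with sgRNA3, against 29.88 and 30.20 TPM with LACZ. Its sgRNA1 libraries were the lowest and its sgRNA3 libraries the highest, with log2 changes of -0.26 (SE 0.07, limma adjusted p = 0.103) and 0.03 (SE 0.07, limma adjusted p = 0.831).

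The decoy gene TNFRSF10D (ENSG00000173530) rose with both guides. It had 22.91 and 22.93 TPM in sgRNA1 libraries and 22.43 and 22.80 TPM in sgRNA3 libraries, against 9.24 and 10.56 TPM in LACZ libraries. Means were 22.9 ± 0.0141 TPM with sgRNA1, 22.6 ± 0.262 TPM with sgRNA3 and 9.90 ± 0.933 TPM with LACZ (SD, n = 2 each), or 232% and 228% of LACZ. All 4 SULF2-guide libraries lay above both LACZ libraries. Log2 changes reached 1.14 for sgRNA1 (SE 0.09, limma adjusted p = 0.00577) and 1.12 for sgRNA3 (SE 0.09, limma adjusted p = 0.00587). Without sgRNA1 library 2 the sgRNA1 call was lost at a limma adjusted p of 0.0534, and no alternative ended the sgRNA3 call. The other decoy, TNFRSF10C (ENSG00000173535), was near the filter with 0.80 and 2.57 TPM in sgRNA1 libraries and 2.12 and 2.57 TPM in sgRNA3 libraries, against 0.46 and 1.81 TPM in LACZ libraries. Its sgRNA1 and LACZ groups overlapped, and neither change passed (sgRNA1 0.32, limma adjusted p = 0.720; sgRNA3 0.72, limma adjusted p = 0.377).

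The make-up of the receptor transcripts was also described. Summed receptor transcripts were 130 and 127 TPM with sgRNA1 and 146 and 145 TPM with sgRNA3, against 137 and 138 TPM with LACZ. Decoy transcripts (TNFRSF10C plus TNFRSF10D) made up 18.3% and 20.2% of that sum with sgRNA1 and 16.8% and 17.4% with sgRNA3, against 7.08% and 8.97% with LACZ. TNFRSF10B transcripts outnumbered TNFRSF10D transcripts by a ratio of 3.50 and 3.36 with sgRNA1 and 4.05 and 3.94 with sgRNA3, against 10.5 and 9.04 with LACZ. These ratios combine the values above and carry no test.

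**Figure D3:**
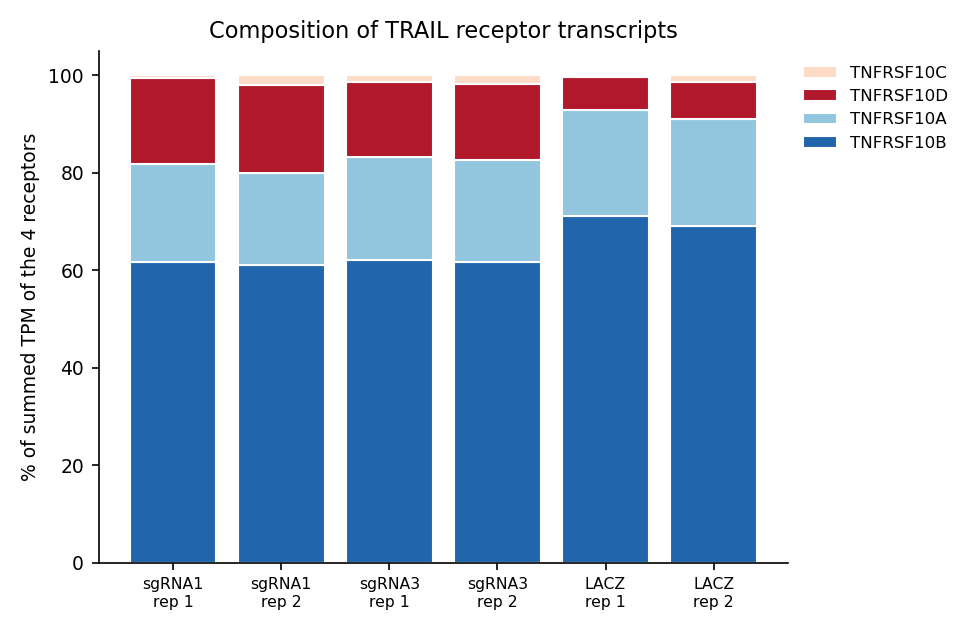
Share of the summed TPM of the 4 receptor genes (vertical axis, percent) in each library; each bar is 1 library and each colour 1 gene. The TNFRSF10D share is 15.3% to 18.1% in the SULF2-guide libraries and 6.75% and 7.65% in the LACZ libraries.

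BCL2L1 (ENSG00000171552, chromosome 20) encodes BCL-XL, a prosurvival protein of the outer mitochondrial membrane, and was the most abundant of the 9 transcripts in every group. It had 240.48 and 231.90 TPM in sgRNA1 libraries and 253.01 and 258.64 TPM in sgRNA3 libraries, against 329.08 and 336.33 TPM in LACZ libraries. Means were 236 ± 6.07 TPM with sgRNA1, 256 ± 3.98 TPM with sgRNA3 and 333 ± 5.13 TPM with LACZ (SD, n = 2 each), or 71.0% and 76.9% of LACZ. All SULF2-guide libraries lay below LACZ, and its log2 changes were -0.49 for sgRNA1 (SE 0.04, limma adjusted p = 0.00479) and -0.38 for sgRNA3 (SE 0.04, limma adjusted p = 0.00969). The sgRNA3 call was lost without any one of the sgRNA3 or LACZ libraries (limma adjusted p 0.0563 to 0.0655), and both calls without an intensity trend in the variance (0.0541 with sgRNA1, 0.0647 with sgRNA3). AL117381.1 and ABALON overlap BCL2L1 on the opposite strand, and gene-level TPM merges its 9 annotated protein-coding transcripts.

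MCL1 (ENSG00000143384, chromosome 1) encodes the short-lived prosurvival protein MCL-1 and fell with both guides. It had 137.77 and 132.06 TPM in sgRNA1 libraries and 152.25 and 147.94 TPM in sgRNA3 libraries, against 216.30 and 198.16 TPM in LACZ libraries. Means were 135 ± 4.04 TPM with sgRNA1, 150.1 ± 3.05 TPM with sgRNA3 and 207 ± 12.8 TPM with LACZ (SD, n = 2 each), or 65.1% and 72.4% of LACZ. The groups did not overlap, and log2 changes were -0.61 for sgRNA1 (SE 0.06, limma adjusted p = 0.00823) and -0.46 for sgRNA3 (SE 0.06, limma adjusted p = 0.0149). Calls were lost with sgRNA1 without sgRNA1 library 2 (limma adjusted p = 0.0628), and with sgRNA3 without either sgRNA3 library or LACZ library 1 (0.0688 to 0.0817). Without an intensity trend in the variance neither call was made (limma adjusted p 0.0509 with sgRNA1, 0.0616 with sgRNA3). The MCL1-to-BCL2L1 ratio was 0.573 and 0.569 with sgRNA1 and 0.602 and 0.572 with sgRNA3, against 0.657 and 0.589 with LACZ.

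BCL2L11 (ENSG00000153094, chromosome 2), which encodes the BH3-only protein BIM that neutralises prosurvival BCL2 proteins, did not pass with either guide. It had 5.12 and 14.76 TPM in sgRNA1 libraries and 5.27 and 6.49 TPM in sgRNA3 libraries, against 4.22 and 4.43 TPM in LACZ libraries. The second sgRNA1 library stands apart from the others, and every SULF2-guide library was above both controls. Log2 changes were 0.88 for sgRNA1 (SE 0.44, limma adjusted p = 0.294) and 0.36 for sgRNA3 (SE 0.44, limma adjusted p = 0.640). Without that sgRNA1 library the sgRNA1 change was 0.20 on the log2 scale, and without the other sgRNA1 library 1.57. MCL1 plus BCL2L1 transcripts exceeded BCL2L11 transcripts by a ratio of 73.9 and 24.7 with sgRNA1 and 76.9 and 62.6 with sgRNA3, against 129 and 121 with LACZ. MIR4435-2HG, at 119 to 138 TPM over the libraries, overlaps BCL2L11 on the opposite strand. Strandedness is not stated, so the low BCL2L11 values and this ratio are uncertain to that degree.

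CFLAR (ENSG00000003402, chromosome 2), encoding c-FLIP, an inactive relative of caspase-8, fell with sgRNA1. It had 74.35 and 85.58 TPM in sgRNA1 libraries and 94.30 and 91.21 TPM in sgRNA3 libraries, against 114.40 and 113.19 TPM in LACZ libraries. All SULF2-guide libraries lay below LACZ, at 70.3% of its mean with sgRNA1 and 81.5% with sgRNA3. Log2 changes were -0.51 for sgRNA1 (SE 0.08, limma adjusted p = 0.0275) and -0.29 for sgRNA3 (SE 0.08, limma adjusted p = 0.0761, not called). The sgRNA1 call was lost without sgRNA1 library 1 or any one of the sgRNA3 and LACZ libraries (limma adjusted p 0.0592 to 0.134), and the sgRNA3 change was called without either sgRNA1 library (0.0471 and 0.0475). The sgRNA1 call was also lost with no low-value filter, scaling by median ratios, no intensity trend, a replicate block or only the groups compared (limma adjusted p 0.0583 to 0.0783). Gene-level TPM merges the 18 annotated protein-coding transcripts, so long and short c-FLIP forms are not separated.

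The guides were also compared with each other. None of the 9 genes passed in sgRNA3 against sgRNA1 by limma, where 0.578% of all genes tested were called (0.391% higher, 0.187% lower). Of the 9, 7 had groups that did not overlap, beside 47.0% of all genes, and 5 had an unadjusted p under 0.05, each higher with sgRNA3, where 15.4% of all genes had such a p (9.49% higher). For TNFRSF10D the difference was -0.02 on the log2 scale (95% interval -0.26 to 0.22, limma adjusted p = 0.951). TNFRSF10A differed by 0.29 (0.11 to 0.48, limma adjusted p = 0.179) and MCL1 by 0.15 (0.01 to 0.30, limma adjusted p = 0.308). A p that misses the threshold does not show that the guides act alike.

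From highest to lowest mean level the order was BCL2L1, MCL1, CFLAR, TNFRSF10B, TNFSF10, TNFRSF10A, TNFRSF10D, BCL2L11 and TNFRSF10C in all 3 groups. The library ranges of CFLAR and TNFRSF10B overlapped with sgRNA1, and no other neighbours in that order overlapped in any group. TPM is corrected for length, so these levels can be set side by side.

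Beyond these genes, lists of 62 pathway genes were examined, of which 56 were tested. With sgRNA1 9 fell and none rose, beside 4.31% of all genes called lower and 1.69% higher. With sgRNA3 9 fell and 2 rose, beside 5.25% and 3.84%. An unadjusted limma p under 0.05 was found for 23 of the 56 with sgRNA1 and 24 with sgRNA3, beside 24.6% and 28.0% of all genes. With both guides 7 fell, beside 2.90% of all genes, and 5 of these 7 were transcription factors. Like the 9 genes, all lists were chosen with earlier results of these data known, so these shares are not independent results. The lists' median log2 change was -0.09 with sgRNA1 and -0.08 with sgRNA3, beside -0.07 and -0.05 for all genes.

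Among the other BH3-only genes, 1 of 6 tested fell with sgRNA1 and 3 of 6 with sgRNA3, beside 4.31% and 5.25% of all genes. PMAIP1, encoding NOXA, which binds MCL-1, averaged 46.2 TPM with sgRNA1 and 52.4 TPM with sgRNA3, against 81.4 TPM with LACZ, and fell with both (sgRNA1 -0.80, limma adjusted p = 0.0130; sgRNA3 -0.63, limma adjusted p = 0.0191). BIK, at -0.41 (limma adjusted p = 0.0371), and BMF, at -0.78 (limma adjusted p = 0.0424), fell with sgRNA3, both calls being lost without any one of the 6 libraries (limma adjusted p 0.0651 to 0.146 for BIK, 0.0714 to 0.164 for BMF). BBC3, encoding PUMA, averaged 1.10 TPM with sgRNA1 and 0.925 TPM with sgRNA3, against 3.08 TPM with LACZ, and did not pass (sgRNA1 -0.97, limma adjusted p = 0.0843; sgRNA3 -1.08, limma adjusted p = 0.0569). PMAIP1 lost its sgRNA1 call without either sgRNA1 library or LACZ library 1 (limma adjusted p 0.0656 to 0.0753) and its sgRNA3 call without any one of the sgRNA3 or LACZ libraries (0.0590 to 0.0877). None of the 3 tested BAX and BAK effector genes was called by limma, and none had an unadjusted p under 0.05 with either guide against LACZ. In the remaining prosurvival list only BCL2L2, encoding BCL-W, was expressed enough to test, and it did not pass (sgRNA1 -0.47, limma adjusted p = 0.0581; sgRNA3 -0.34, limma adjusted p = 0.0930).

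Inhibitors of apoptosis fell in part, with 2 of 6 tested called with sgRNA1 and 1 of 6 with sgRNA3. Of all genes, 4.31% and 5.25% were called lower. BIRC3, encoding cIAP2, averaged 40.7 TPM with sgRNA1 and 53.2 TPM with sgRNA3, against 81.7 TPM with LACZ, and fell with both guides (sgRNA1 -0.99, limma adjusted p = 0.00442; sgRNA3 -0.61, limma adjusted p = 0.0147). The BIRC3 call with sgRNA3 was lost without any one of the sgRNA3 or LACZ libraries (limma adjusted p 0.0575 to 0.0769). BIRC2, encoding cIAP1, fell with sgRNA1 (-0.59, limma adjusted p = 0.0320) and missed the threshold with sgRNA3 (-0.43, limma adjusted p = 0.0528); the sgRNA1 call was lost without any one of the 6 libraries (0.0598 to 0.147). XIAP averaged 22.3 TPM with sgRNA1 and 30.4 TPM with sgRNA3, against 33.8 TPM with LACZ, and did not pass (sgRNA1 -0.57, limma adjusted p = 0.0557; sgRNA3 -0.14, limma adjusted p = 0.494).

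In the death receptor complex list FADD, the adaptor that links the receptors to caspase-8, rose with sgRNA3 (0.35, limma adjusted p = 0.0377) and was at 0.28 with sgRNA1 (limma adjusted p = 0.0734). CASP8 was not called with either guide (-0.03 with sgRNA1 and 0.22 with sgRNA3). CYCS, encoding cytochrome c, was the called gene of 8 among apoptosome and caspase genes and rose with sgRNA3 (0.32, limma adjusted p = 0.0281). FADD was the 1 called of 6 in its list and CYCS the 1 of 8, beside 3.84% of all genes called higher with sgRNA3. No gene of either list was called with sgRNA1. FADD lost its call without any one of the 6 libraries (limma adjusted p 0.0649 to 0.155) and CYCS without any one of the sgRNA3 or LACZ libraries (0.103 to 0.126). In the list of other death receptors and ligands, which also holds TNFRSF1B and TNFRSF11B, limma called none of 7 tested genes with either guide. An unadjusted limma p under 0.05 was found for 2 (sgRNA1) and 3 (sgRNA3), beside 24.6% and 28.0% of all genes. TNF averaged 0.35 TPM with sgRNA1 and 0.09 TPM with sgRNA3, against 1.795 TPM with LACZ. Its log2 changes were -1.06 (limma adjusted p = 0.108) and -1.35 (limma adjusted p = 0.0565). TNFRSF11B was at 0.03 with sgRNA1 (limma adjusted p = 0.937) and 0.67 with sgRNA3 (limma adjusted p = 0.0959). The 7 ubiquitin enzymes that act on MCL-1 or c-FLIP were likewise not called by limma, and none had an unadjusted p under 0.05 in either comparison against LACZ.

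Of 12 transcription factors reported upstream of these genes, 6 fell with sgRNA1 and 5 with sgRNA3. Of all genes tested, 4.31% were called lower with sgRNA1 and 5.25% with sgRNA3. Like the other lists, this list was chosen with earlier results of these data known, so its share is not an independent result. ATF4, DDIT3 (CHOP), EGR1, IRF1 and MYC fell with both guides. EGR1, an immediate early factor, averaged 2.96 TPM with sgRNA1 and 2.58 TPM with sgRNA3, against 92.3 TPM with LACZ (sgRNA1 -4.57, limma adjusted p = 0.000379; sgRNA3 -4.70, limma adjusted p = 0.000714). DDIT3 averaged 31.9 TPM with sgRNA1 and 38.7 TPM with sgRNA3, against 107 TPM with LACZ (sgRNA1 -1.72, limma adjusted p = 0.000827; sgRNA3 -1.45, limma adjusted p = 0.00134). ATF4, the effector of the integrated stress response, averaged 248 TPM with sgRNA1 and 259 TPM with sgRNA3, against 484 TPM with LACZ (sgRNA1 -0.96, limma adjusted p = 0.000717; sgRNA3 -0.90, limma adjusted p = 0.00116). MYC fell by 1.38 on the log2 scale with sgRNA1 (limma adjusted p = 0.000587) and by 1.08 with sgRNA3 (limma adjusted p = 0.00128). IRF1 averaged 70.5 TPM with sgRNA1 and 77.5 TPM with sgRNA3, against 124 TPM with LACZ (sgRNA1 -0.81, limma adjusted p = 0.0164; sgRNA3 -0.67, limma adjusted p = 0.0209). Its calls were lost without any one of the sgRNA1 or LACZ libraries (sgRNA1) and without sgRNA3 library 1 or either LACZ library (sgRNA3), at limma adjusted p 0.0558 to 0.0974 and 0.0707 to 0.101. FOXO3, listed like the other factors with earlier results known, fell with sgRNA1 (-0.57, limma adjusted p = 0.0310). That call was lost without any one of the 6 libraries.

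**Figure D4:**
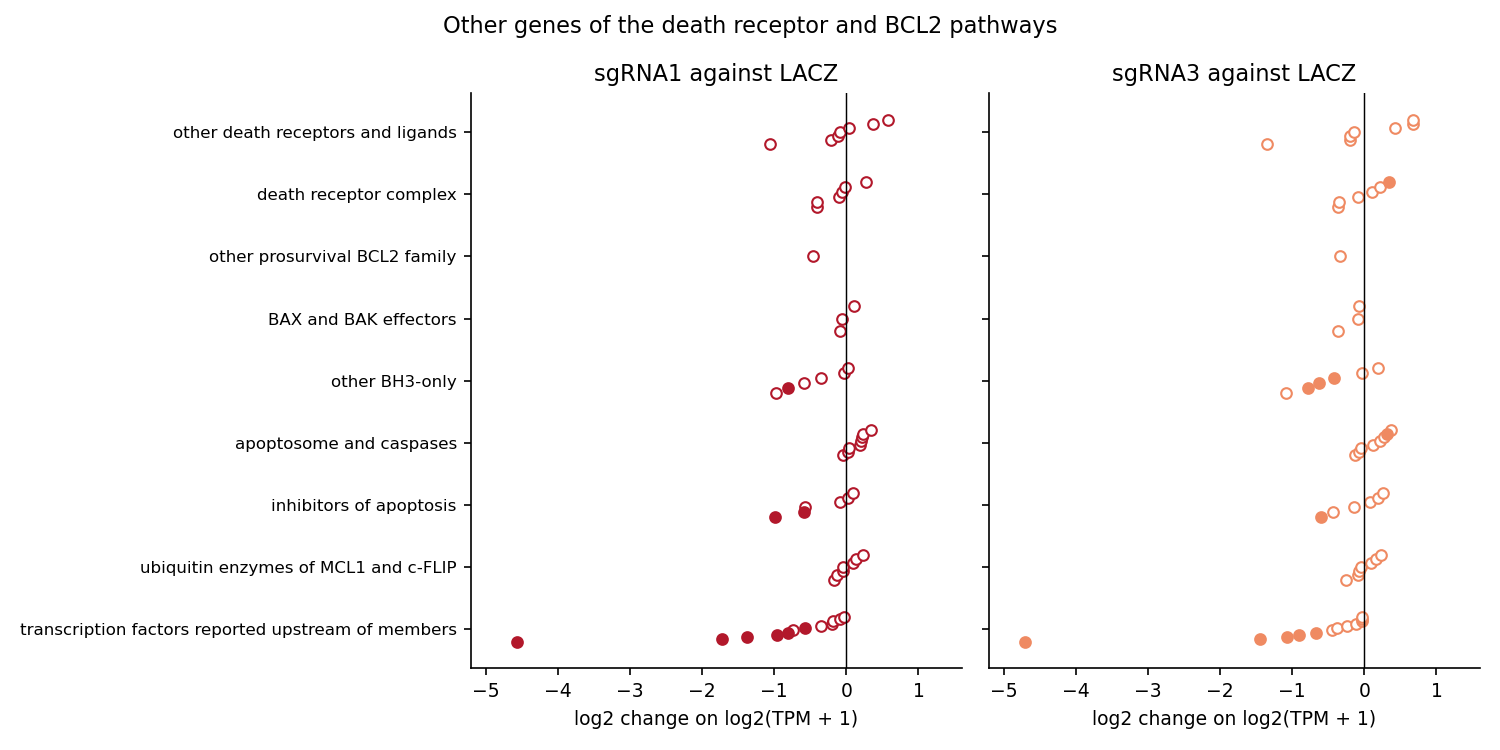
Change against LACZ (horizontal axis, log2 on the log2(TPM + 1) scale) of the tested pathway genes, 1 row a list, with sgRNA1 on the left and sgRNA3 on the right; filled points passed the adjusted p threshold. The lowest points are EGR1 at -4.57 and -4.70, and the filled points to the right of 0 with sgRNA3 are FADD and CYCS.

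Genes beside the loci were also examined. Within 200 kb of the 9 loci 35 other genes were tested. With sgRNA1, 1 was called higher and none lower, beside 1.69% and 4.31% of all genes. With sgRNA3, 2 were called higher and 2 lower, beside 3.84% and 5.25% of all genes. In the receptor cluster, 9 neighbours were tested and ENTPD4 was called, higher with sgRNA1 (0.41, limma adjusted p = 0.0408). Beside MCL1, CTSS was higher (0.76, limma adjusted p = 0.0411) and GOLPH3L lower (-0.42, limma adjusted p = 0.0466) with sgRNA3. ID1, near BCL2L1, was lower (-0.31, limma adjusted p = 0.0465) and NCEH1, near TNFSF10, higher (0.27, limma adjusted p = 0.0306), both with sgRNA3.

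Genes with the most similar patterns over the 6 libraries were found by the root mean square difference of centred log2(TPM + 1) values among 10847 candidates. For TNFRSF10D they were HSPA8 (0.103), SKP2 (0.114) and TIMM21 (0.118). MCL1 was nearest to FGD6 (0.0258), HINT3 (0.0299) and CCNG2 (0.0362), and BCL2L1 to LIMA1 (0.0129), FEM1C (0.0237) and ESRP1 (0.0272). HSPA8 averaged 1213 TPM with sgRNA1 and 1421 TPM with sgRNA3, against 593 TPM with LACZ. These are descriptions over the libraries that also define the groups.

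**Figure D5:**
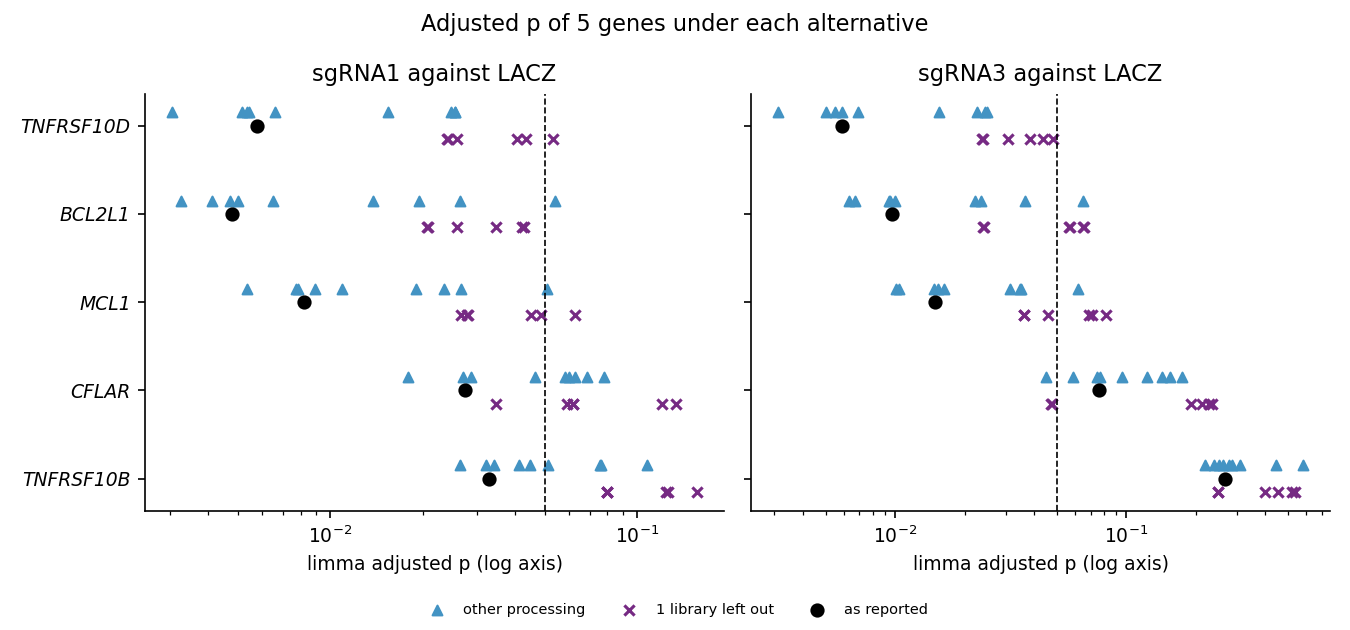
Limma adjusted p (horizontal axis, log scale) of 5 genes under each alternative, for sgRNA1 on the left and sgRNA3 on the right; the dashed line is 0.05, triangles are other processing, crosses leave out 1 library and circles are the values as reported. TNFRSF10D stays left of the line except without 1 sgRNA1 library (0.0534), and TNFRSF10B with sgRNA1 crosses it without any one of the 6 libraries.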

How the data were processed

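RNA-seq of 6 CFPAC-1 libraries was analysed from a single deposited table. Total RNA was extracted with TRIzol and sequenced on Illumina libraries, per the labels' protocols. The authors deposited gene-level TPM values with 2 decimals. Tools listed in the submitters' processing notes, without a role or order, are RSEM 1.3.1, HISAT2 2.1.0 and DESeq2 1.24.0, and the build is GRCh38. Annotation release, strandedness and the treatment of shared reads are not stated. TPM keeps no depth, so no counting interval is given. The H1 and H3 library columns were taken as S1 and S3 because the guide numbers match; the authors' group means were not tested.

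Values were analysed as log2(TPM + 1), which understates changes of low genes. DESeq2 was not used, since TPM values are not counts. Genes with at least 1 TPM in at least 2 libraries entered limma 3.58.1 in R 4.3.3 with an intensity trend (3 groups, 3 residual and 2.34 prior degrees of freedom), two-sided with Benjamini-Hochberg adjustment over 16610 genes. The script was tested on simulated data. Loci came from GENCODE 29 and promoters from RefSeq. Python 3.11.15 was used for annotation and figures.

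All 9 genes and SULF2 were always named. From the pathway lists, genes called with both guides were named, with up to 4 others a list. The BAX and BAK effector and ubiquitin enzyme lists are given by counts only. Called neighbours within 200 kb were also named. So were the 3 most similar genes with a mean of at least 5 TPM for each of the 9 called with both guides. The genes and lists were chosen with earlier results of these data known, and 1 gene of the lists is not reported here. As alternatives, results were recomputed with a pseudocount of 0.1 or 5, no low-value filter, a filter of 5 TPM, median-of-ratios scaling, quantile normalization, no intensity trend, only the groups compared, a replicate block, the mean of both guides and leaving out each library; a group left with 1 library was assumed to vary like the others.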

Additional observations from a re-analysis of the deposited data

Results flagged for a closer look

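COL1A1, a fibroblast marker listed to check the cells, differed between the guides by a direct test. It had 39.01 and 35.08 TPM with sgRNA3 and 57.42 and 55.51 TPM with sgRNA1, a log2 change of -0.60 for sgRNA3 against sgRNA1 (limma adjusted p = 0.0463). LACZ libraries had 74.81 and 74.02 TPM. The call was lost without any one of the 6 libraries (limma adjusted p 0.0922 to 0.180), and the cause was not tested.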

How the results depend on the processing

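The 8 called changes of the 9 genes kept their sign under every alternative. Of the 19 changes that were not called, 4 took the other sign in 6 cases, none of them called: TNFSF10 with sgRNA1 (0.05 under scaling by median ratios and 0.04 under quantile normalization, against -0.03), TNFRSF10C with sgRNA1 (-0.17 without sgRNA1 library 2 and -0.15 without LACZ library 1, against 0.32), and for sgRNA3 against sgRNA1 TNFRSF10C (-0.10 without sgRNA1 library 1, against 0.40) and BCL2L11 (0.16 without sgRNA1 library 2, against -0.52). Of 402 values for these genes, 366 kept their side of the threshold, 33 no longer passed and 3 newly passed. Genes called with sgRNA1 against LACZ, 997 as reported, numbered 542 with no low-value filter, 295 without the intensity trend, 481 with only the groups compared and 163 to 464 leaving out each library. With sgRNA3 against LACZ, 1509 as reported, they numbered 785, 557 and 992 under those settings, and 242 to 967 leaving out each library. With sgRNA3 against sgRNA1, 96 as reported, limma called 0 with no filter, 12 without the trend, 12 with only the groups compared and 0 to 29 leaving out each library.

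Of the 9 genes, those called with sgRNA1 numbered 5 as reported, 3 under median-of-ratios scaling, 1 without the trend, 3 with only the groups compared and 2 to 3 leaving out each library. Those called with sgRNA3 numbered 3 as reported, 1 without the trend and 1 to 4 leaving out each library. Called with both guides were 3 as reported, 1 without the trend and fewer than reported in some fits that left out a library. The mean of both guides against LACZ is a separate comparison, which does not ask for a call with each guide. In it 5 of the 9 genes were called. The genes it added were TNFRSF10B and CFLAR (limma adjusted p = 0.0450 and 0.0255), neither of which was called with sgRNA3. Beside leaving out libraries, SULF2, BIK, BIRC2, BIRC3, BMF, CYCS, FADD, FOXO3, IRF1 and PMAIP1 lost a call under 1 to 5 of the 9 other settings, and ATF4, DDIT3, EGR1 and MYC lost none. Some calls were gained. Median-of-ratios scaling and quantile normalization newly called FADD with sgRNA1 (limma adjusted p = 0.0373 and 0.0439) and BIRC2 with sgRNA3 (0.0451 and 0.0380). The filter of 5 TPM newly called BIRC2 (0.0378) and FOXO3 (0.0438) with sgRNA3 and BIK (0.0443) with sgRNA1. The cause was not tested.

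Same-numbered libraries did not deviate together (r of deviations -0.03, -0.02 and 0.01). Whether they were made or processed together is not stated in the labels, and these values cannot decide it. A replicate block gave 377 genes called with sgRNA1, 561 with sgRNA3 and 0 for sgRNA3 against sgRNA1, and of the 9 genes 3 with sgRNA1 and 3 with sgRNA3. With sgRNA1, 281 genes were higher and 716 lower; quantile normalization made this 442 and 560, and scaling by median ratios 606 and 576. With sgRNA3, 637 were higher and 872 lower, which scaling by median ratios made 1042 and 788. Depth is unknown, so precision rests on 2 libraries a group.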
